A study of Rattus norvegicus with 70 samples.

Results

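Kidneys of vehicle-dosed young adult rats were compared with 4 other organs of the same animals. The kidney libraries were all those of kidney in the vehicle arm, 5 of the 70 libraries of the series, 3 from male and 2 from female rats. They were set against all other vehicle libraries, which were 6 of liver, 6 of thyroids, 3 of testes and 3 of ovaries. In each comparison the 4 other organs had equal weight. The study dosed pregnant Sprague-Dawley rats by mouth from gestation day 6 to lactation day 6, and then their pups directly from postnatal day 7 until they were killed on postnatal day 63. The arms were vehicle, bisphenol A (BPA) at 500 mg/kg/day to the dams and 250 mg/kg/day to the pups, and a mixture (Mix) of the same total doses, which for the dams was BPA at 160, bisphenol F (BPF) at 160 and bisphenol S (BPS) at 180 mg/kg/day. RNA of each organ was read by QuantSeq 3′ mRNA sequencing, which counts reads near the 3′ end of polyadenylated transcripts, and levels are given as CPM, the counts of a gene divided by the scaled size of its library. The vehicle rats carried no transgene and received no bisphenol, the vehicle substance is not named in the labels, and which pups shared a litter is not given. There were 6 vehicle rats, and 1 of the 3 females has no kidney library here. RNA was read from organ tissue as a mix of its cells, so more cells of a type and more RNA per cell cannot be told apart in any result below.

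The kidney filters blood at the glomerulus, where podocytes form the last layer of the filter, and then recovers most of the filtrate along the nephron. The proximal tubule takes back glucose, amino acids, phosphate and filtered protein and secretes organic anions and cations. The loop of Henle, the distal convoluted tubule and the collecting duct then set the salt, water and acid content of the urine.

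The kidney libraries held 5378208 to 10218159 counts over 17048 rows of the deposited table, and 13342 genes passed the filter on low counts. The Y-linked gene Eif2s3y lay between 25.1 and 38.9 CPM in the 3 male kidneys and was listed at 0 in both female kidneys. Ribosomal RNA rows took 3.50, 1.71 and 2.53% of the counts in the 3 male kidneys, and 37.1 and 19.2% in the 2 female kidneys. Ribosomal RNA share and sex cannot be told apart in vehicle kidney; its part in the sex differences below was not tested. In Mix kidneys the share was 1.42 to 20.2% in males and 17.5 to 20.6% in females, and in BPA kidneys it was 16.4 to 37.2% in males and 17.2 to 20.9% in females. Female kidney replicate 2 held less of the proximal tubule genes and more of the later nephron segments than the other 4, as described below.

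Both markers of kidney were far above every other organ. Gpx3, the glutathione peroxidase that the proximal tubule secretes into plasma, was at 20078, 15632 and 18192 CPM in the male kidneys and at 16446 and 3219 CPM in the female kidneys. The lowest of the 5, female replicate 2, still lay above every library of the other organs. The kidney mean of 14713 ± 6649 CPM (SD, n = 5) was 37.1 times the mean in thyroids, the next highest organ at 397 CPM, and each of the 4 comparisons passed the test (edgeR quasi-likelihood, largest adjusted p = 5.32e-06). Kap, the kidney androgen-regulated protein of the proximal tubule first known from mouse, was at 6247, 4908 and 5885 CPM in males and at 4128 and 3743 CPM in females. All 5 kidneys were high, and no library of another organ overlapped them. The kidney mean of 4982 ± 1082 CPM (SD, n = 5) was 891 times the liver mean of 5.59 CPM, with a largest adjusted p over the 4 organs of 2.95e-06.

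Promoters of both markers are shown beside that of Pdzk1, a scaffold gene of brush-border transporters, because Pdzk1 carried CAAAGTCCA, a form of the site of HNF4 factors, and the markers did not. HNF4 factors are transcription factors of proximal tubule and liver. The sequences are the 300-base windows around the annotated start in RefSeq (build GRCr8), written 5′ to 3′ on the gene's strand, with CAAAGTCCA or its reverse complement in capitals. The windows are Pdzk1 at chr2:187064745-187065044 (plus strand), Kap at chr4:168408983-168409282 (minus) and Gpx3 at chr10:39529085-39529384 (plus).
Pdzk1: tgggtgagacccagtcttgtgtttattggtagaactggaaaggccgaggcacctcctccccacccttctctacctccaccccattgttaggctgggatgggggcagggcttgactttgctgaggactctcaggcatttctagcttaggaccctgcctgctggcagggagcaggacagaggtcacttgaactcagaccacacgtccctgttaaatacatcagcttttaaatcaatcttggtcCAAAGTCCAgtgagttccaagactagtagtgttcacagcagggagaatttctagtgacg
Kap: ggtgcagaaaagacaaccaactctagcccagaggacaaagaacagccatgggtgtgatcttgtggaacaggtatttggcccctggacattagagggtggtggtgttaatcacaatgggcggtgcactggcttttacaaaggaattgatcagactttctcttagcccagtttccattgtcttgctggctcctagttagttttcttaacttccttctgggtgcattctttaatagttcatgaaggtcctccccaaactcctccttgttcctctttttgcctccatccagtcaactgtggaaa
Gpx3: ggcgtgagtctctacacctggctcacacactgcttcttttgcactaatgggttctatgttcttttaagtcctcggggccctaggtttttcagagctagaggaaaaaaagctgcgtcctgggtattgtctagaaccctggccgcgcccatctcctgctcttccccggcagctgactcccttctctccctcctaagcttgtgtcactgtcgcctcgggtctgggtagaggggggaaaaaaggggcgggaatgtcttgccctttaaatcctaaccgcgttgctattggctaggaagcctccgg
Searched on both strands, CAAAGTCCA was in 131 of the 33469 promoters of the table (0.391%) and in 41 of the 10156 promoters matched to tested genes (0.404%). It was in 5 of 414 matched promoters of the genes higher in kidney than in each other organ (1.21%) and in 2 of 28 of the proximal tubule list (7.14%). The hepatocyte list held it in 1 of 14 (7.14%). It was in 0 of 68 promoters of genes lower in kidney than in each other organ, 0 of 9 of the 12 named genes, 0 of 7 of the loop of Henle list and 0 of 9 of the intercalated cell list. These matches are descriptions of the letters in 300 bases and not binding sites.

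A gene is called higher in kidney than in each other organ where the adjusted p was under 0.05 and the log2 difference at least 1 against liver, thyroids, testes and ovaries in turn. This held for 561 of 13342 genes (4.20%), and 86 genes (0.645%) were lower than in each by the mirrored rule. For 628 genes (4.71%) every kidney library lay above every other library, and for 78 (0.585%) below. Against the equal-weight mean of the 4 organs, 3557 genes were higher (26.7%) and 2844 lower (21.3%), 48.0% in all. Here and below, this tested mean was taken over fitted log2 levels. A gene very high in 1 organ can thus lie above it and yet below the mean of CPM. Taken 1 organ at a time, 39.4% of genes differed from ovaries, 44.2% from liver, 51.7% from thyroids and 69.8% from testes. The split against testes was 4304 higher (32.3%) and 5013 lower (37.6%), and 5323 and 4146 with upper-quartile scaling. Against ovaries it was 2772 (20.8%) and 2486 (18.6%), and 2292 and 3204 with upper-quartile scaling. Against thyroids it was 3617 (27.1%) and 3281 (24.6%), and 3185 and 3925 with upper-quartile scaling.

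The 12 genes named as higher in kidney were Kap, 6 genes of channels, carriers and a proton pump subunit, the collectrin gene Tmem27, the calcium-binding protein gene Calb1, the urinary protein gene Umod, the basement membrane protein gene Tinag and the protease subunit gene Mep1b. Slc7a12, an amino acid transporter, was at 362, 461 and 205 CPM in males and at 1643 and 1294 CPM in females, against at most 1.54 CPM in any library of another organ. Its mean of 793 CPM was 2257 times that of ovaries, and both female kidneys lay above the 3 males, a difference that did not pass the sex test (adjusted p = 0.156). Kcnj1, the apical potassium channel of the thick ascending limb known as ROMK, was at 181, 293 and 233 CPM in males and at 225 and 449 CPM in females, 507 times the liver mean of 0.545 CPM. Female replicate 2 was the highest of the 5, and no other organ reached 2 CPM in any library.

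Umod, the uromodulin of the thick ascending limb, was at 1021, 1585 and 1891 CPM in male kidneys and at 1053 and 1654 CPM in female kidneys, 703 times thyroids. Male and female values overlapped. Of the proximal tubule transporters, Slc7a13, which carries aspartate, glutamate and cystine, averaged 1523 CPM (622 times liver). Slc5a12, a lactate transporter, was at 117, 112.5 and 110 CPM in males and at 250 and 52.8 CPM in females, so the 2 females bracketed the males (750 times liver). The phosphate transporter Slc34a3 was at 139, 109 and 132 CPM in males and at 67.9 and 10.5 CPM in females. Its lowest value again came from female replicate 2, and no ovary library held a count, so the difference was at least 762-fold against a floor of 3 counts over the 3 ovary libraries.

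Tmem27 encodes collectrin, the partner of brush-border amino acid transporters, and averaged 1848 CPM, 820 times thyroids. Atp6v1g3, a proton pump subunit of intercalated cells, was 895 times liver. Calb1, the calcium-binding protein of the distal convoluted and connecting tubule, was 490 times thyroids. Tinag was 829 times and Mep1b 508 times liver. The 12 genes were chosen among passing genes without overlap, and their largest adjusted p over the 4 organs was 3.78e-06, for Slc5a12 (edgeR quasi-likelihood).

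**Figure D1:**
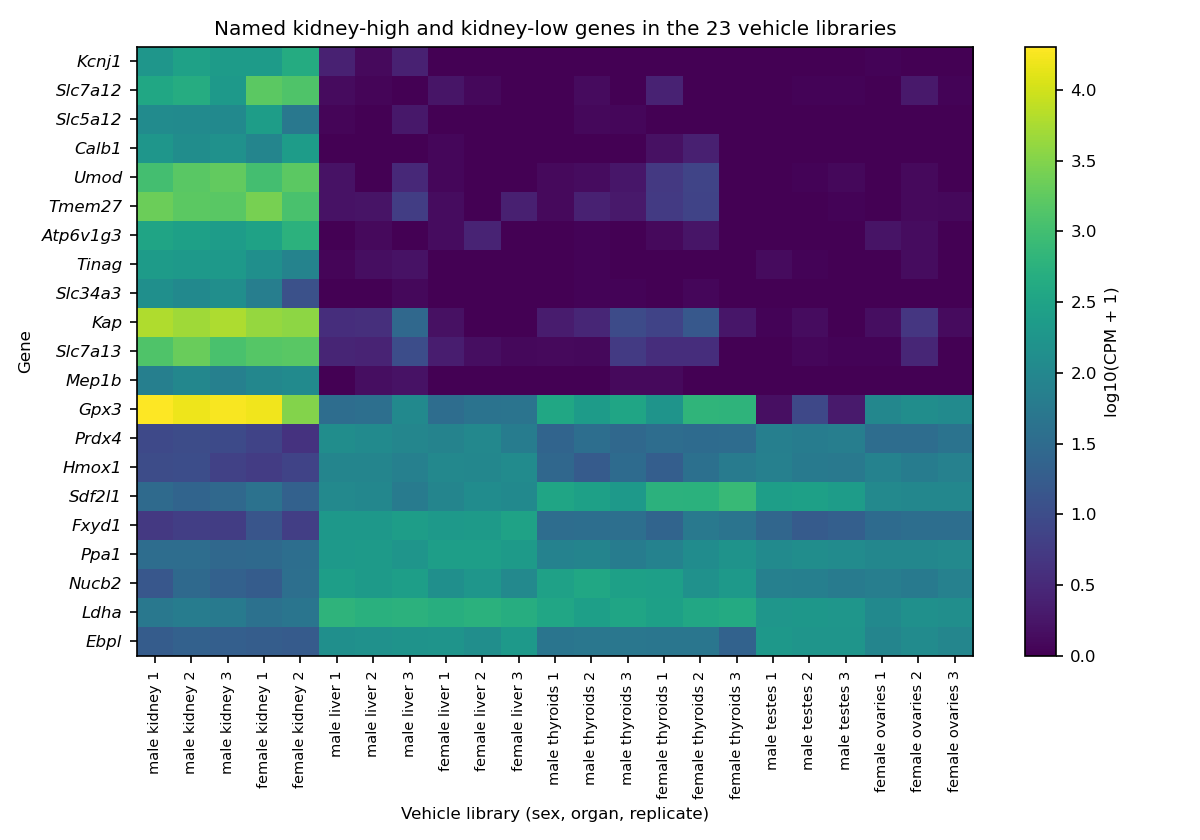
Levels of the 12 genes named as higher in kidney, Gpx3 and the 8 named as lower (vertical axis) in each of the 23 vehicle libraries (horizontal axis, grouped by organ and sex), with colour giving log10(CPM + 1). Within each gene's row, the 5 kidney columns are brighter than the others for the upper 13 genes and darker for the lower 8. Female replicate 2 is the weakest kidney for Gpx3 (3219 CPM) and Slc34a3 (10.5 CPM).

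Genes of the nephron segments were described by 6 lists, and for each gene the kidney mean was divided by the mean of the organ where it was highest outside the kidney. Over all 13342 genes the median log2 of this ratio was -1.32, and 2010 genes were highest in kidney. Of 31 proximal tubule genes, 31 were higher in kidney than the mean of the other organs (background 26.7%), 28 were higher than in each (background 4.20%), and the median log2 ratio to the nearest organ was 6.33. The exceptions were Slc17a1, Slc17a3 and Slc5a8, which failed the test against 1 of the 4 organs, with adjusted p of 0.248, 0.202 and 0.163. Slc34a1, the main phosphate transporter of the brush border, averaged 1589 CPM, 829 times thyroids. The water channel Aqp1 was at 2495, 2195 and 2459 CPM in males and at 1201 and 797 CPM in females.

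In the loop of Henle list, 13 of 13 tested genes were higher than the mean of the other organs and 12 than in each, with a median log2 ratio of 6.01. Slc12a1, the sodium-potassium-chloride cotransporter that loop diuretics block, was at 432, 996 and 755 CPM in males and at 617 and 1221 CPM in females, 133 times testes. The exception was the urea transporter gene Slc14a2, at 14.2 CPM in kidney and 11.3 CPM in testes. Of 9 tested distal convoluted and connecting tubule genes, 8 were higher than in each, with a median of 5.01. Slc12a3, the thiazide-sensitive cotransporter, was at 336, 321 and 286 CPM in males and at 112.1 and 426 CPM in females. Pvalb, parvalbumin, was listed at 0 in all 5 kidneys and averaged 45.2 CPM in thyroids, so this marker of the early distal convoluted tubule was not detectable above the 0.0609 CPM that 0 counts over the 5 libraries allow (3 counts, counting error alone).

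Collecting duct genes were split by cell type. Of 10 tested principal cell genes, 9 were higher than the mean of the other organs and 6 than in each, with a median of 2.01. Aqp2, the water channel that vasopressin controls, was at 126.9, 216 and 174 CPM in males and at 344 and 366 CPM in females, 82.2 times testes. The sodium channel subunit Scnn1b went the other way against thyroids, at 10.4 CPM in kidney and 29.6 CPM in thyroids, and the factor Tfcp2l1 averaged 239 CPM in kidney and 124 CPM in thyroids. Elf5 was the gene that did not pass (adjusted p = 0.0643), and Avpr2, the vasopressin receptor, had too few counts to test.

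Of 11 intercalated cell genes, 11 were higher than the mean and 9 than in each, with a median of 4.48. Slc4a1, the basolateral anion exchanger that erythroid cells share, was at 94.4, 179 and 111.6 CPM in males and at 78.0 and 256 CPM in females. The ammonia transporter genes Rhcg and Rhbg were the exceptions. Rhcg was at 49.8 CPM in kidney, 47.9 CPM in thyroids and 48.1 CPM in testes, and Rhbg averaged 49.0 CPM in kidney and 84.1 CPM in ovaries.

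Of 8 tested podocyte genes, 8 were higher than the mean of the other organs and 4 than in each, with a median of 0.99. Nphs1, nephrin of the slit diaphragm, was at 107, 80.4, 67.8, 59.4 and 166 CPM in male replicates 1 to 3 and female replicates 1 and 2, 86.7 times ovaries. The podocyte factor Wt1 averaged 13.3 CPM in kidney and 30.1 CPM in testes, where Sertoli cells are known to express it.

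**Figure D2:**
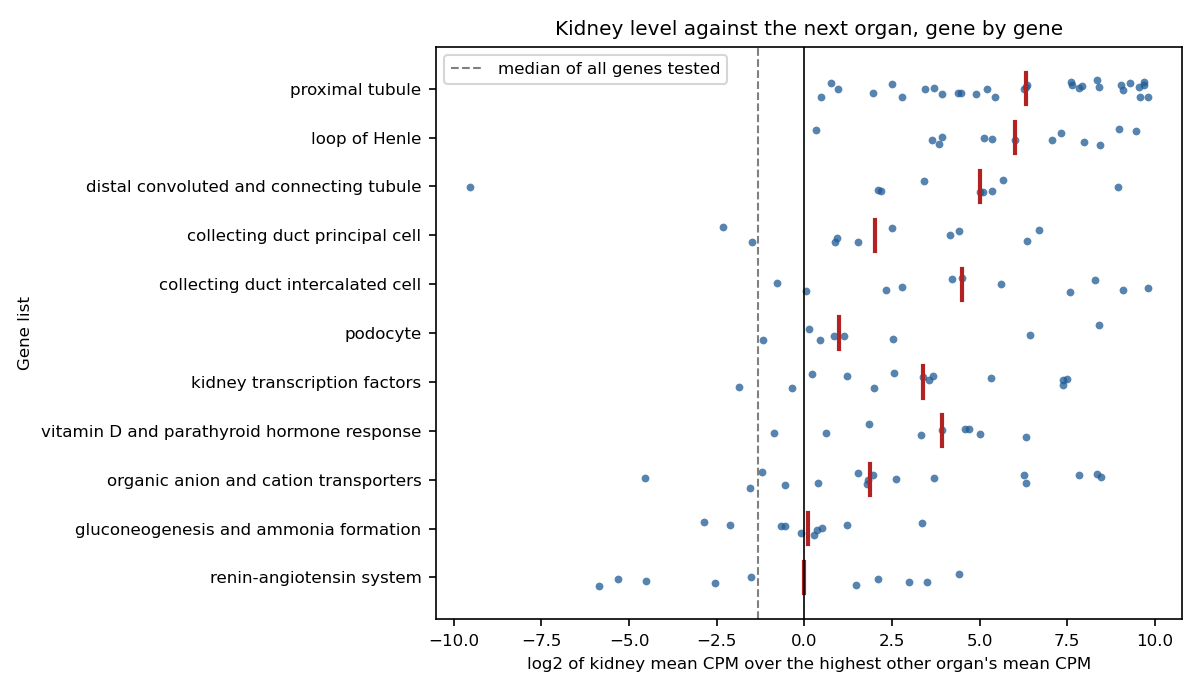
Log2 ratio of the kidney mean CPM to the mean of the highest other organ (horizontal axis) for each tested gene of 11 kidney lists (vertical axis, 1 point per gene). Red bars are at the list medians, and a dashed line is at the median of all 13342 genes, -1.32. The proximal tubule (6.33) and loop of Henle (6.01) lists have the highest medians, and renin-angiotensin (-0.02) and gluconeogenesis (0.09) lie near 0.

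Genes of the kidney's hormone systems were described in the same way. Of 10 renin-angiotensin genes, 7 were higher than the mean of the other organs (26.7% of all genes), and 5 were higher than in each (4.20%), among them the receptor gene Agtr1b and the peptidase genes Mme and Enpep. Agt, which encodes angiotensinogen, made mainly by liver, averaged 50.8 CPM in kidney and 2045 CPM in liver. It was among the 7 by the mean of log2 levels and not by that of CPM. Ace was at 0.0444 CPM in kidney and 3.56 CPM in testes, and Mas1 and Atp6ap2 did not pass either. Of 9 genes of vitamin D and parathyroid hormone response, 9 were higher than the mean and 6 than in each, namely Cyp27b1, which makes active vitamin D, the receptor genes Vdr and Pth1r, Kl, and the uptake receptor genes Lrp2 and Cubn. Cyp24a1, which degrades vitamin D, was at 0.695 CPM in kidney.

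Transcription factors and cadherins of the renal epithelium were higher than the mean of the other organs for 13 of 13 tested genes and higher than in each for 9. Pou3f3, a factor of the loop and distal nephron, was at 119, 142 and 125 CPM in males and at 181 and 288 CPM in females, 181 times thyroids. Both females lay above the males, but 0 of the 13 genes passed the sex test. An unadjusted edgeR p under 0.05 for sex was found for 0 of them (14.1% of all genes). The genes named next were not higher than in each and were shared with 1 other organ. Pax8 averaged 63.7 CPM in kidney and 231 CPM in thyroids, Hnf4a averaged 364 CPM in kidney and 462 CPM in liver, and Hnf4g was also not above liver by the rule.

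Of 16 organic anion and cation transporter genes, 16 were higher than the mean and 9 than in each, with a median log2 ratio of 1.88. Slc22a6, the basolateral anion exchanger OAT1, averaged 816 CPM, 328 times ovaries. Abcc2, an apical efflux pump, averaged 20.7 CPM in kidney and 488 CPM in liver. Liver shares gluconeogenesis with kidney. Of 10 genes of gluconeogenesis and ammonia formation, 10 were higher than the mean of the 4 organs, but against liver 3 were higher (24.8% of all genes) and 4 lower (19.4%), and Slc5a1 was the only gene of the list that was higher than in each. Pck1, which encodes the committing enzyme of gluconeogenesis, averaged 4071 CPM in kidney and 3160 CPM in liver (adjusted p = 0.587). Slc38a3, the glutamine transporter, averaged 48.0 CPM in kidney and 346 CPM in liver. Abcc2 and Slc38a3 were thus above the mean of log2 levels but not above that of CPM.

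The 86 genes lower in kidney than in each other organ included, among the 8 named, the glycolytic enzyme gene Ldha and genes of the endoplasmic reticulum. Ldha, the lactate dehydrogenase subunit of glycolytic tissues, was at 51.6, 62.0, 58.0, 40.0 and 46.2 CPM in male replicates 1 to 3 and female replicates 1 and 2. Ovaries were the nearest organ at 128.3 CPM, and liver was highest at 550 CPM. Prdx4, the peroxiredoxin of the endoplasmic reticulum, was at 7.87, 9.07, 8.41, 6.27 and 3.20 CPM in the same order, against means of 30.6 CPM in thyroids and 97.2 CPM in liver. Its fitted log2 differences ran from -3.93 against liver to -2.28 against thyroids. Hmox1, the inducible heme oxygenase, averaged 7.05 CPM in kidney and 31.7 CPM in thyroids, its lowest other organ.

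Sdf2l1, a protein of the endoplasmic reticulum chaperone complex, averaged 28.2 CPM in kidney and 459 CPM in thyroids. Fxyd1, phospholemman, averaged 6.41 CPM, with 12.5 CPM in female replicate 1 and 4.16 to 5.20 CPM in the other 4 kidneys. Ppa1, the cytosolic pyrophosphatase, averaged 31.4 CPM in kidney, Nucb2, the precursor of nesfatin, averaged 23.4 CPM, and Ebpl averaged 18.1 CPM. The 8 genes were chosen among passing genes for which no kidney library reached any library of another organ. Their largest adjusted p over the 4 organs was 1.09e-04, for Nucb2. Of the 86 genes, 17 (19.8%) were among the testis-enriched rows defined below, which were 9.26% of all genes tested and were chosen for testes levels far above those of female kidney.

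The kidneys of the BPA and Mix arms gave repeats in animals that entered no vehicle comparison. The same test called 6037 of 13275 genes in the 23 BPA libraries (45.5%; 25.6% higher and 19.8% lower in kidney) and 6736 of 13027 in the 24 Mix libraries (51.7%; 28.4% higher and 23.3% lower). Genes higher in kidney than in each other organ numbered 530 with BPA (3.99%) and 604 with Mix (4.64%). Of the 561 vehicle genes, 449 were called in BPA (80.0% of the vehicle and 84.7% of the BPA list), 490 in Mix (87.3% and 81.1%) and 434 in both (77.4%). Of the genes that could be tested, 551 of 551 in BPA and 552 of 552 in Mix were higher in kidney than the mean of the other organs. Gpx3 and all 12 named genes were called in all 3 arms.

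Genes lower in kidney than in each other organ repeated in part. They numbered 96 with BPA (0.723%) and 67 with Mix (0.514%). Of the 86 vehicle genes, 40 were called in BPA (46.5% of the vehicle and 41.7% of the BPA list), 38 in Mix (44.2% and 56.7%) and 27 in both (31.4%). Against the mean of the other organs, 86 of 86 were lower in each arm. Prdx4, Ppa1 and Nucb2 were called in all 3 arms, Hmox1 and Fxyd1 in vehicle and BPA, and Ebpl in vehicle and Mix. Sdf2l1 and Ldha were called in vehicle alone. In BPA kidneys Gpx3 was at 7908 to 10252 CPM in males and at 25023 to 30276 CPM in females, and these 2 ranges did not overlap.

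Within vehicle kidney, female replicate 2 stood apart in the levels of the segments. For each gene the deviation of log2(CPM + 1) in a library from the mean of the 5 was taken, and the list median is given. In female replicate 2 the median was -0.77 for the proximal tubule, 0.40 for the loop of Henle, 0.27 for the distal convoluted and connecting tubule, 0.72 for principal cells, 0.84 for intercalated cells and 0.53 for podocytes. The proximal tubule was thus low and the other 5 lists high in that library. Male replicate 1 had the lowest loop of Henle median, -0.45, beside the highest proximal tubule median, 0.35, whereas in male replicate 2 both were above the mean, at 0.30 and 0.27. Summed over the list, proximal tubule genes were at 49704, 41405 and 45035 CPM in males and at 39338 and 18129 CPM in females, against at most 934 CPM in any other organ's library. Without female replicate 2, 545 genes were higher in kidney than in each other organ, beside 561 with it, and 108 rather than 86 were lower. What part of each kidney was taken is not stated in the labels, and its part in the segment levels was not tested.

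**Figure D3:**
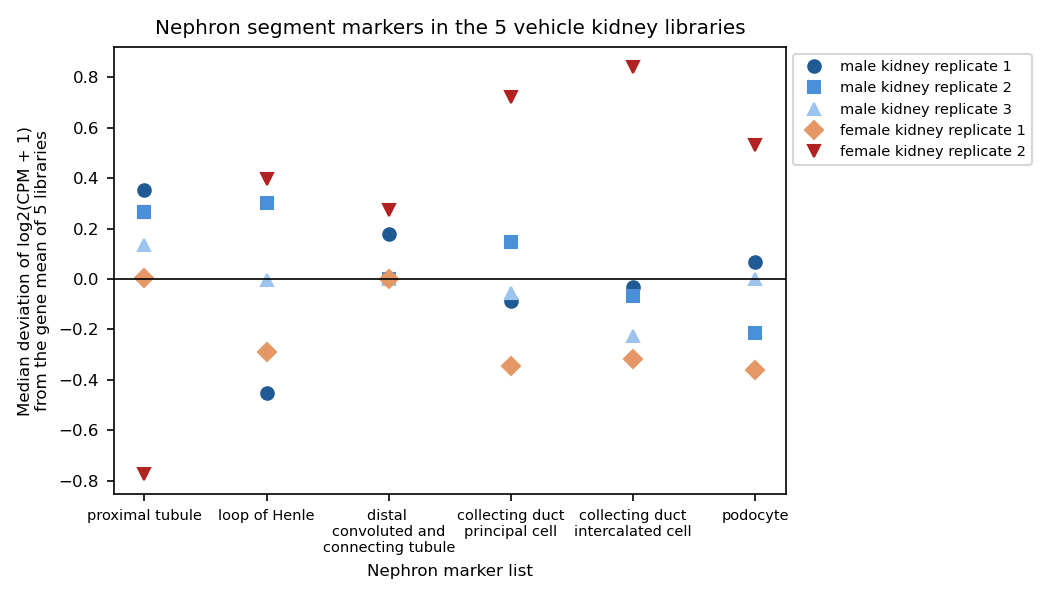
Median deviation of log2(CPM + 1) from the gene's mean over the 5 vehicle kidney libraries (vertical axis) for 6 nephron lists (horizontal axis), with 1 point per library. Female replicate 2 is lowest for the proximal tubule (-0.77) and highest for intercalated cells (0.84).

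Male and female kidney differed in 161 genes (1.21%), 102 higher in males (0.765%) and 59 higher in females (0.442%). With upper-quartile scaling the split was 82 and 81. The count rested on single libraries. It was 40 without female kidney replicate 2, and 55, 77 and 74 without male kidney replicates 1, 2 and 3. It was 418 without female thyroids replicate 3 and 289 without female thyroids replicate 1, libraries that enter through the shared estimate of spread, and a fit of the 5 kidney libraries alone called 709 of 11226 genes (6.32%), 427 higher in males (3.80%) and 282 in females (2.51%). Of the 82 tested genes of the 6 nephron lists, 0 passed the edgeR test, 6 (7.32%) had an unadjusted p under 0.05, and DESeq2 called 0. Of all genes, 14.1% had an unadjusted p under 0.05 and DESeq2 called 478.

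The 6 genes named as higher in males were carriers and metabolic enzymes. Slc22a22, a prostaglandin-specific organic anion transporter, was at 71.7, 76.6 and 72.6 CPM in males and at 0 and 0.400 CPM in females (log2 difference 8.29 ± 1.06 SE, adjusted p = 0.00178). Dhrs7, a short-chain dehydrogenase, was at 547, 717 and 529 CPM in males and at 7.84 and 5.47 CPM in females (6.49 ± 0.82, adjusted p = 5.56e-04). Males were uniformly high and females uniformly low for both. Akr1c12l1, an aldo-keto reductase, was at 372, 448 and 450 CPM in males and at 1.22 and 3.74 CPM in females (7.37 ± 1.03, adjusted p = 9.24e-04). Rgn, regucalcin, was at 285, 383 and 239 CPM in males and at 11.1 and 11.6 CPM in females (4.73 ± 0.68, adjusted p = 0.00107). The cytochrome P450 gene Cyp2d5 (adjusted p = 0.0356) and the organic anion carrier Slco1a1 (adjusted p = 0.0402) were nearer the threshold, and lost the call without 7 and 12 of the 23 libraries respectively, taken 1 at a time.

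The 6 genes named as higher in females were of mixed function. Armc3, an armadillo-repeat protein, was at 4.86, 3.57 and 3.45 CPM in males and at 160 and 166 CPM in females (log2 difference -5.36 ± 0.66 SE, adjusted p = 4.81e-04). Tspan8, a tetraspanin of epithelia, was at 11.7, 20.4 and 18.1 CPM in males and at 164 and 143 CPM in females (-3.20 ± 0.41, adjusted p = 6.29e-04). Sexes did not overlap for either gene, which was a condition for being named. Cyp4b1, a cytochrome P450, was at 7.87, 11.4 and 14.2 CPM in males and at 129 and 77.4 CPM in females (-3.21 ± 0.47, adjusted p = 0.00178). Sds, serine dehydratase, was at 1.86, 3.94 and 5.13 CPM in males and at 42.5 and 37.5 CPM in females (-3.45 ± 0.62, adjusted p = 0.00718). Col17a1, a hemidesmosome collagen, had an adjusted p of 0.0349 and Ly6al one of 0.00364. Leaving out 1 library at a time, Col17a1 lost the call in 7 of 23 fits, and Ly6al and Sds in 1 each.

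Of 12 genes listed for a known sex difference in rodent kidney or liver, 2 passed (1.21% of all genes). An unadjusted edgeR p under 0.05 was found for 7 (14.1% of all genes), and DESeq2 called 4 (3.58% of all genes). Those that passed were Slco1a1 as higher in males and Slc22a7, the organic anion transporter OAT2, as higher in females. Slc22a7 was at 1.24, 1.78 and 1.42 CPM in males and at 13.1 and 34.6 CPM in females (log2 difference -3.99, adjusted p = 0.0129). Slc22a2, the basolateral cation transporter OCT2, was at 1166, 1257 and 1206 CPM in males and at 249.5 and 205 CPM in females (adjusted p = 0.0898). Cyp4a2, a fatty acid hydroxylase, was at 5112, 4576 and 5310.2 CPM in males and at 681 and 182 CPM in females (adjusted p = 0.251). Neither overlapped between the sexes, and neither passed. Kap, which androgen raises in mouse kidney, had a log2 difference of 0.53 ± 1.06 SE (adjusted p = 0.875).

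Sex differences of kidney were set against those of liver and thyroids. The kidney difference departed from the mean of the other 2 organs in 56 genes (0.420%), 34 towards males (0.255%) and 22 towards females (0.165%), with 8 of them among the 12 named. The 12 were chosen for their kidney sex difference, the first term of this test, so the 8 are a description. The count for the kidney sex difference beyond that of liver and thyroids was 14 without female kidney replicate 2, 466 without female thyroids replicate 1 and 364 with DESeq2. With libraries of other organs over 300 CPM of spermatid transcripts left out, a choice made after seeing the data, the count was 1300. Sds departed by a log2 of -7.24 (adjusted p = 4.82e-04), and in liver it averaged 69.5 CPM in males and 10.99 CPM in females. In thyroids it averaged 1.42 CPM in males and 0.0321 CPM in females, so values near 0 enter its departure. Dhrs7 averaged 578 CPM in male and 23.7 CPM in female liver, the same direction as in kidney. In thyroids it was low in both sexes, at 1.26 and 1.89 CPM. Its kidney difference exceeded the mean of the 2 organs by 4.47 (adjusted p = 0.0176), and was not set against liver alone. Cyp2d5 was at 933 CPM in male and 904 CPM in female liver, and Cyp4b1 at 22.97 and 22.6 CPM, so both levels lay close together in liver. Slc22a22, Slco1a1, Col17a1 and Ly6al did not pass this test.

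In treated kidneys the sex difference was called in 75 genes with BPA (0.565%) and 897 with Mix (6.89%). Of the 161 vehicle genes, 19 were called with BPA (11.8% of the vehicle and 25.3% of the BPA list) and 74 with Mix (46.0% and 8.25%). The sign was the same for 94 of 161 with BPA and for 144 of 161 with Mix. All 6 named male-higher genes passed in both arms. The 6 named female-higher genes passed with Mix, and with BPA their adjusted p ran from 0.0703 to 0.617 (edgeR).

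**Figure D4:**
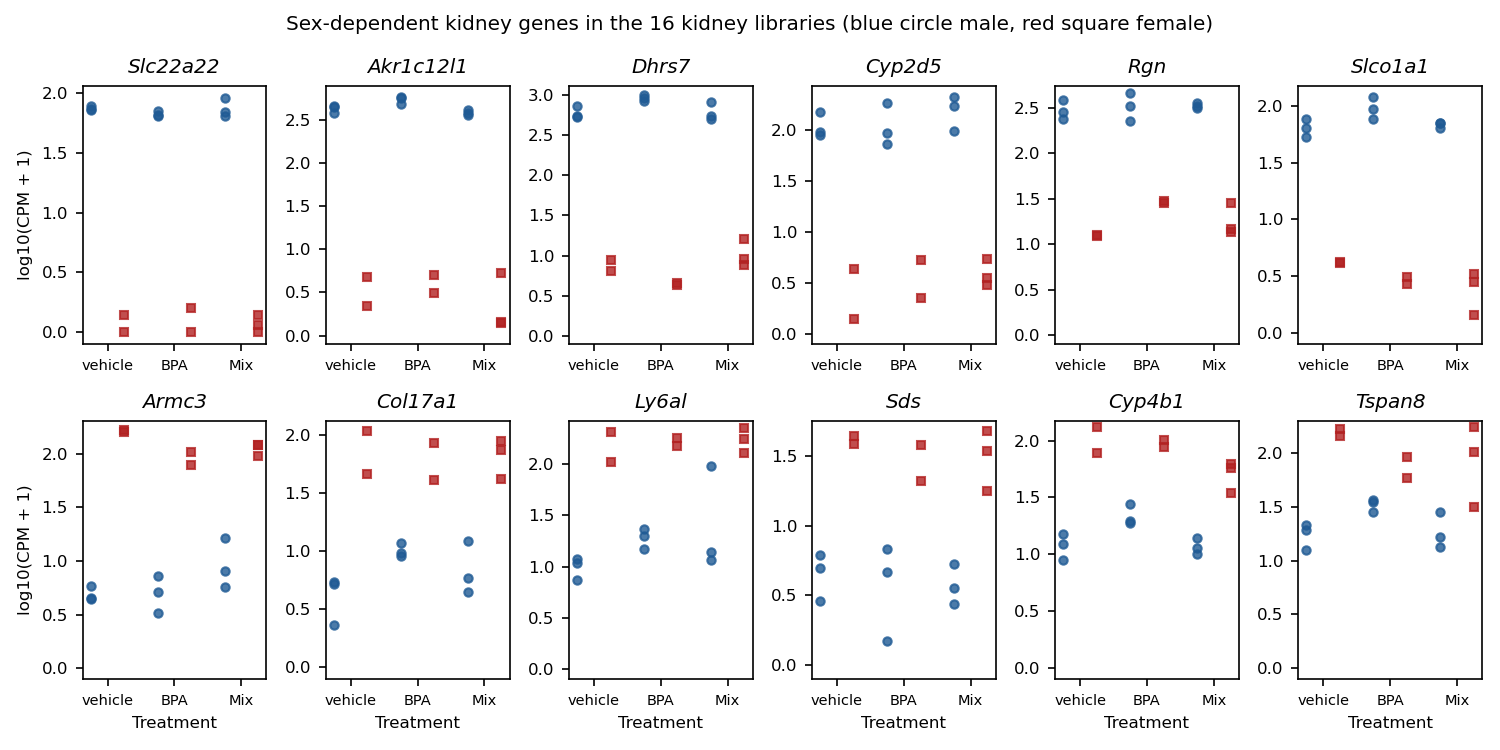
Levels as log10(CPM + 1) (vertical axis) of the 6 genes named as higher in male and the 6 named as higher in female vehicle kidney (1 panel each), in all 16 kidney libraries by arm and sex, with 1 point per library, blue circles for males and red squares for females. Dhrs7 lies between 529 and 717 CPM in the 3 vehicle males and at 7.84 and 5.47 CPM in the vehicle females.

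Transcripts of testis were present in male kidney at low level. The 24 genes of the spermatid list summed to 795, 415 and 610 CPM in male kidneys and to 39.9 and 34.3 CPM in female kidneys, against 95922 ± 1612 CPM (SD, n = 3) in testes. Males were thus at 0.633% and females at 0.0387% of the testes level, and the groups did not overlap. The two-sided exact permutation test gave p = 0.2, the smallest that 3 against 2 libraries allow. Tnp1, the transition protein that replaces histones in spermatids, was at 325, 167 and 269 CPM in males, at 1.22 and 0.133 CPM in females and at 46550 CPM in testes.

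Across the 23 spermatid genes with at least 100 CPM in testes, which leaves out Pdha2 at 67.7 CPM, the median share of the testes level was 0.864, 0.409 and 0.622% in male kidney replicates 1, 2 and 3, and 0% in both females. The 3 male libraries ranked the same way by the summed list. Hspa2, which somatic cells also express, was at 1.23 to 2.25% of testes in all 5 kidneys. In the fit of all 23 libraries 0 of 24 spermatid genes passed the sex test, while 20 had an unadjusted p under 0.05 (14.1% of all genes) and DESeq2 called 11 (3.58% of all genes). In the fit of the 5 kidneys alone 20 of 22 were higher in males, where 3.80% of all genes were. Many of these genes were at or near 0 in both female kidneys, so they could pass its low-count filter through male kidney alone. The 20 are thus a description.

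The wider set of testis-enriched rows, 1237 in all, was chosen on BPA and Mix libraries for a testes level at least 20 times that of female kidney. The choice thus favours rows low in female kidney, and other organs do not enter it, and ovaries held 16944 to 20978 CPM of these rows. They summed to 5217 ± 897 CPM (SD, n = 3) in male and 2647 ± 213 CPM (SD, n = 2) in female kidney, 1.19 and 0.605% of testes. With a stricter limit of 100-fold, 820 rows summed to 2282 and 332 CPM, 0.687 and 0.1000% of testes. Such rows were 1236 of the genes tested (9.26%) and 6 of the 102 genes higher in male kidney (5.88%). In the fit of the 5 kidneys alone they were 742 of the 11226 genes tested (6.61%), 160 of the 427 higher in males (37.5%) and 0 of the 282 higher in females, but low female kidney values in the treated arms chose them, so this split is a description. Other organs held spermatid transcripts too, at 4161, 2449 and 29.5 CPM in the 3 female thyroids, at 345, 771 and 17.4 CPM in the 3 ovaries, at 73.7 to 776 CPM in male thyroids and at 16.6 to 144 CPM in livers. Whether such transcripts came from handling, sequencing or expression in the organ was not tested.

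**Figure D5:**
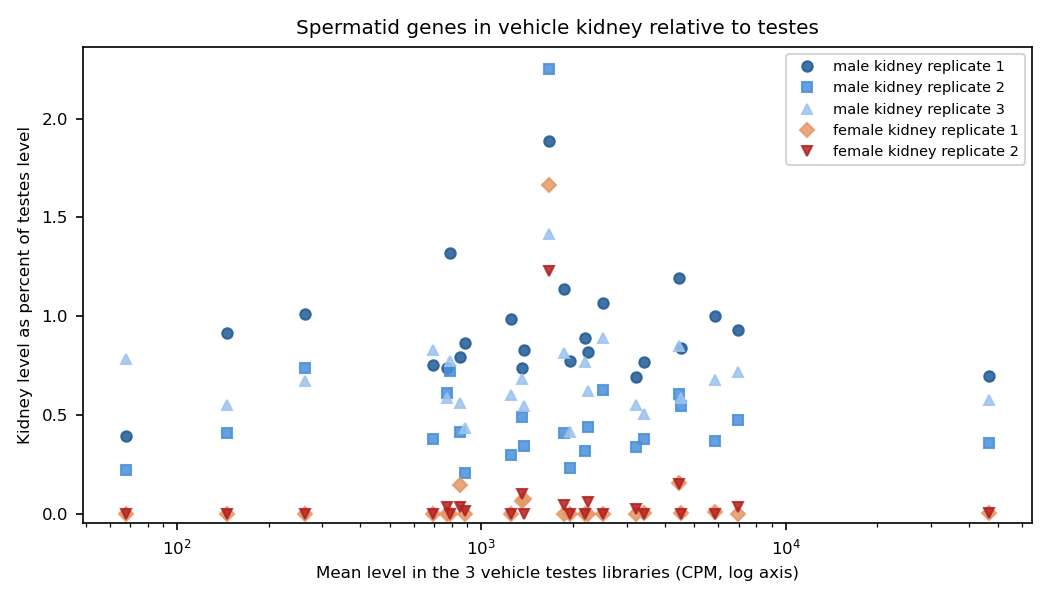
Level of each spermatid gene in kidney as a percentage of its mean level in testes (vertical axis) against its level in testes (horizontal axis, log scale), with 1 point per gene and kidney library. Points of the 3 male kidneys lie in bands with medians of 0.864, 0.409 and 0.622%, and the median of both female kidneys is 0%.

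Hepatocyte, thyroid and ovarian markers were, with 1 exception, lower in kidney than in their own organ. Of 18 hepatocyte genes, 18 were lower than in liver (19.4% of all genes were), and their sum was 73.6 to 239 CPM against 265829 to 307435 CPM in liver. Of 11 thyroid genes, 10 were lower than in thyroids (24.6% of all genes), and Slc26a4, pendrin of the intercalated cell, was higher. Their sum was 194 to 267 CPM in kidney and 22524 to 81951 CPM in thyroids, but at most 92.2 CPM in liver, 29.1 CPM in testes and 10.9 CPM in ovaries. Against the mean of the other organs, 4 were higher (26.7% of all genes) and 2 lower (21.3%). Slc5a5 and Duox2 were listed at 0 in all 5 kidneys. Of 10 ovarian genes, 10 were lower than in ovaries (18.6% of all genes), with sums of 2.44 to 7.61 CPM, and Cyp19a1 and Amh were listed at 0. Adrenal genes, whose gland lies on the kidney, summed to 4.07 to 50.8 CPM, and Cyp11b1, Th and Pnmt were listed at 0. The top of that range came from Akr1b7, at 0.0885, 0 and 0 CPM in males and at 21.1 and 47.2 CPM in females (adjusted p = 9.24e-04). In liver the adrenal list summed to 0.977 to 1.72 CPM in males and to 328 to 482 CPM in females. Whether adrenal tissue entered any library was not tested.

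Endothelial and erythroid transcripts were not low in kidney. Of 9 endothelial genes, 8 were higher than the mean of the other organs (26.7% of all genes were), and their sum was 270 to 392 CPM in kidney, 299 to 451 CPM in liver, 243 to 653 CPM in thyroids, 214 to 218 CPM in ovaries and 38.3 to 42.3 CPM in testes. Of 5 erythroid genes, 3 were higher, and their sum was 3705 to 7176 CPM in kidney, 4731 to 10954 CPM in liver, 3594 to 7438 CPM in thyroids, 2568 to 5462 CPM in ovaries and 250 to 467 CPM in testes. Kidney overlapped liver and thyroids for both lists and lay above testes. Of 11 macrophage genes, 6 were lower (21.3% of all genes) and 2, Cd74 and Lyz2, higher (26.7% of all genes), and their sum was 696 to 802 CPM. In female rats alone, with kidney set against liver, thyroids and ovaries, Lyz2 did not pass (log2 difference 0.24, edgeR adjusted p = 0.793). Nor did the endothelial genes Kdr and Pecam1 or the erythroid genes Hba1, Hbb and Hbb-b1. That comparison leaves out testes, where Lyz2 averaged 27.6, Kdr 2.79 and Hbb 52.7 CPM. Sex and the choice of organs cannot be told apart in it. The scavenger receptor Cd163 averaged 0.462 CPM and Mrc1 4.85 CPM, both lower than in each other organ. Of 9 fibroblast genes, 4 were lower (21.3% of all genes) and 2 higher (26.7%), with sums of 288 to 765 CPM. Skeletal muscle genes summed to 2.03 to 12.01 CPM and adipocyte genes to 91.5 to 183 CPM, with Lpl, the lipoprotein lipase, higher and the adipsin gene Cfd lower in kidney than in each other organ.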

How the data were processed

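The deposited table holds whole-number counts of QuantSeq 3′ reads per gene symbol, which the authors left unnormalized. Per the submitters' processing notes, FastQC, Bowtie2, bedtools, edgeR and the rn6 build were used; versions, strand setting and treatment of multi-mapping reads are not given in the sources used here. Of 17048 rows, 316 share a symbol with another row (149 symbols) and were kept apart. Each column named 1 sample.

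From these counts, the 23 vehicle libraries were fitted in 8 organ-by-sex groups with edgeR 4.0.16 (R 4.3.3, limma 3.58.1): low-count filter by group, TMM scaling, quasi-likelihood test, Benjamini-Hochberg adjustment over 13342 genes, adjusted p threshold 0.05. Kidney is the mean of its male and female groups, and the tests average fitted log2 levels over groups and organs. Levels are CPM on TMM-scaled library sizes. BPA and Mix libraries were fitted apart in the same way. Code was tested on simulated data. P-values measure the spread between animals of one arm, and intervals on counts were not used.

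Named genes are the 12 higher and 8 lower in kidney than in each other organ with the largest smallest difference (kidney mean at least 50 CPM for the higher, each other organ at least 20 CPM for the lower, no overlap), up to 6 each way between sexes (mean log2 CPM at least 3, no overlap, testis-enriched rows set apart), up to 4 passing members per list by level, and exceptions. Testis-enriched rows have at least 10 CPM in treated testes and at least 20 times the treated female kidney mean. The genes and lists were chosen with earlier results of these data known.

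Organs of 1 rat are paired by the rat code in the labels. Deviations from group means had a median correlation of 0.113 between organs of the same rat (-0.0495 to 0.235, 15 pairs) and -0.0610 between rats (30 pairs). Deviations within a group sum to 0, so the between-rat median is tied to the same-rat one and is not a separate baseline. For the 2 female kidneys the values mirror each other, so the pairs are not independent. The fit with rat as a block, other scalings, filters, DESeq2 1.42.0 and single libraries left out were tried as alternatives. Promoters came from RefSeq GRCr8, matched by symbol to 10156 tested genes. Some genes of the lists are not reported here.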

Additional observations from a re-analysis of the deposited data

Results flagged for a closer look

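Among the 129 sets of 5 kidney values examined, 7 held 1 library apart from the other 4, where chance alone sets apart about 1 in 20. Atp6v1g3 reached 590 CPM in female replicate 2, against 239 CPM in the lowest kidney. In the same library Gpx3 was at 3219 CPM, against 15632 CPM in the next lowest kidney. Lpl was at 95.5 CPM and the summed adipocyte list at 183 CPM there too. Fxyd1 was at 12.5 CPM and Cubn, the cubilin of the proximal tubule brush border, at 619.5 CPM in female replicate 1. Irx3, a homeobox factor of the nephron, was at 125 CPM in male replicate 2.

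For 8 of the 12 genes named between sexes, the kidney sex difference departed from the mean of those in liver and thyroids (edgeR, adjusted). These genes were chosen for a large kidney sex difference, which is part of the departure. For Dhrs7 and Sds, low thyroid levels enter that mean, as given above. The log2 departure towards males was 7.08 for Cyp2d5 (adjusted p = 0.0441), 6.55 for Akr1c12l1 (0.0143), 5.06 for Rgn (0.00265) and 4.47 for Dhrs7 (0.0176). Towards females it was -7.24 for Sds (4.82e-04), -4.92 for Armc3 (0.0140), -3.32 for Cyp4b1 (0.0107) and -2.94 for Tspan8 (0.0107).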

How the results depend on the processing

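Of 103 named gene values, 82 kept direction and call under every alternative. Of the 20 genes named as higher or lower than in each organ, 20 did so against the mean of the other organs. Their calls against each organ in turn were not followed gene by gene through the alternatives. With rat as a replicate block, 5857 rather than 6401 genes differed for kidney against the other organs, 500 were higher in kidney than in each other organ and 71 lower, and no count moved by over 1.5 times; sex contrasts cannot be estimated with it. In female rats alone, a comparison that leaves out testes, 2507 genes differed. Requiring a log2 of 3 left 244 genes higher than in each, and requiring adjusted p alone gave 200 lower. The count for male against female kidney was 478 with DESeq2, 709 in kidneys alone, and 1018 without the 6 libraries of other organs over 300 CPM of spermatid transcripts, an alternative chosen after seeing the data. For the kidney sex difference beyond that of liver and thyroids these were 364 with DESeq2 and 1300 without those libraries. The testis-enriched share of 1.19% was 0.687% at 100-fold and 1.69% by share of counts, and the spermatid share of 0.633% was 0.894% by share of counts. In each case the cause was not tested. Reversed in female rats alone, again without testes, were Agt (-1.56), Cyp21a1 (-0.037), Hbb (-0.15), Hbb-b1 (-0.11) and Kdr (-0.30). Reversed without the spermatid-rich libraries were Gsg1 (0.38), Odf1 (0.31) and Fgb (0.53). None of these reversed values passed the test, and the lowest adjusted p among them was 0.0619, for Agt (edgeR). Leaving out 1 library at a time gave 5379 to 6948 genes against the other organs, 5074 to 6462 against liver, 6033 to 7486 against thyroids, 8602 to 9765 against testes, 4425 to 5935 against ovaries, 526 to 618 higher and 76 to 108 lower than in each, 40 to 418 between sexes, 14 to 466 beyond the other organs' sex difference, 4785 to 6376 with BPA, 6282 to 6842 with Mix, and testis shares of 1.09 to 1.29% and 0.535 to 0.732%. Upper-quartile scaling moved the median log2 of all genes from -0.12 to 0.36 against testes, from 0 to -0.20 against ovaries and from 0 to -0.16 against thyroids. With 2 female kidneys, a sex difference that missed the threshold is not shown to be absent.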
